A study of Mus musculus with 6 samples.

Results

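The Hox genes of mouse clusters A, B, C and D were described here by the open chromatin that ATAC-seq detected in and around them in vascular smooth muscle cells. The members were set by name, as the Hox genes of the 4 clusters, and not by any measured value. Of the 39 genes of this family, 38 were analysed here, among 21882 protein-coding genes in all: 10 in cluster A, 10 in cluster B, 9 in cluster C and 9 in cluster D. Each cluster was taken from its first gene start to its last gene end with 10 kb added on either side, on mm10: chromosome 6, 52152417 to 52270880 (A), chromosome 11, 96184316 to 96378254 (B), chromosome 15, 102911131 to 103046856 (C), and chromosome 2, 74658225 to 74775142 (D).

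The cells were primary cells of the mouse, bought from a supplier, and gave 6 libraries. In 3 control libraries the cells were labelled as negative control. In 3 knockdown libraries they received siRNA against Arid3a, a gene for a transcription factor with an ARID domain, and each of these libraries had a different siRNA. Per the labels' protocols cells were kept for 24 h after transfection, and 50000 cells went into each assay. The labels give no age, strain or vessel of origin, so the level of the body axis from which the cells came was not known. An angiotensin II treatment is described for a disease model without the libraries that received it, and was not used. Whether the replicates were separate cultures is not said. The p-values then measure spread among these libraries alone, and that may be technical. Peak lists hold no RNA level, so the knockdown itself could not be checked here.

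Hox genes encode homeodomain transcription factors that give cells their position along the head-to-tail axis. Within a cluster the genes lie in the order in which they are used along the body. Those of low paralogous group number act towards the head, and those of high number towards the tail and in the limbs. Smooth muscle cells of the vessel wall keep a Hox pattern that depends on their embryonic origin. Polycomb proteins hold unused Hox genes silent, and Trithorax proteins keep used ones active.

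The libraries held 33248 to 52091 peaks, and the median peak had 8 to 11 sequence tags at its summit. Control replicate 2 and knockdown replicate 3 had the shortest lists, with 33248 and 41629 peaks. Of 6 smooth muscle markers, 3 carried a peak at the start in 6 of 6 libraries, against 37.4% of protein-coding genes. These were the contractile genes Acta2, Smtn and Tagln, and for Tagln either gene end was counted. Cnn1 and Lmod1 had one in 4 libraries, and Myh11, for smooth muscle myosin, in 0. The marker lists are short, and their shares were not tested against the genome. Of the endothelial, epithelial, leukocyte, fibroblast and neural and Schwann cell markers, 0 of 4, 0 of 3, 0 of 3, 0 of 3 and 0 of 3 had a peak in 6 of 6 libraries. Cd68 had one in 5 libraries, Tubb3 in 4, Lyz2 in 3 and Kdr in 2.

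Clusters A, B and C carried peaks in every library, and cluster D 4 peaks over all 6 libraries. A site is called open here where the deposited list has a peak, and the absence of a peak says that none was called at this depth. Promoter sequences bear on this because some Hox promoters are rich in CpG, a feature that goes with open promoters across the genome. Promoters of members with and without a peak, among them paralogues, are set beside each other here, each from 250 bases before to 50 bases after the start, from RefSeq on GRCm38.p6. Capitals mark CpG dinucleotides. Hoxa3 (chr6:52213018-52213317, minus strand), Hoxa5 (chr6:52204538-52204837, minus strand) and Hoxc4 (chr15:103034145-103034444, plus strand) had a peak within 1000 bases of the start in 6, 5 and 5 libraries. Hoxd3 (chr2:74711743-74712042), Hoxd4 (chr2:74721728-74722027) and Hoxd13 (chr2:74667975-74668274), all on the plus strand, had one in 0.
Hoxa3: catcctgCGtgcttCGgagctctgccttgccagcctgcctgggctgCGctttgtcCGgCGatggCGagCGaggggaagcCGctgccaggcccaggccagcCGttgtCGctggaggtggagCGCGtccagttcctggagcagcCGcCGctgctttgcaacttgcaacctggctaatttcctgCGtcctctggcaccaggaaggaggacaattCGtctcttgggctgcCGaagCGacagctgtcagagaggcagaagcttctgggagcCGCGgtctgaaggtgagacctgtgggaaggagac
Hoxd3: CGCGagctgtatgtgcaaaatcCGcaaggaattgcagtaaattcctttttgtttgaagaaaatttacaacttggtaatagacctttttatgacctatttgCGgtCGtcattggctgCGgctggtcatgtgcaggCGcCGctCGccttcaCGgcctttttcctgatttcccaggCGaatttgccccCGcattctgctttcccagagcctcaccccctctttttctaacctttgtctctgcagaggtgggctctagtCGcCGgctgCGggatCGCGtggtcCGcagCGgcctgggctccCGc
Hoxa5: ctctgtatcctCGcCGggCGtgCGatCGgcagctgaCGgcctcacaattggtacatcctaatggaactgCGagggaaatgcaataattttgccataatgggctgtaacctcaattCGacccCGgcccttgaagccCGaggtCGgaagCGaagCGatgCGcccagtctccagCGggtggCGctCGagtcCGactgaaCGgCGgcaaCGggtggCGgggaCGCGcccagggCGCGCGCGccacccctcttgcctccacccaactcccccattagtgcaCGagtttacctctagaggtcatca
Hoxc4: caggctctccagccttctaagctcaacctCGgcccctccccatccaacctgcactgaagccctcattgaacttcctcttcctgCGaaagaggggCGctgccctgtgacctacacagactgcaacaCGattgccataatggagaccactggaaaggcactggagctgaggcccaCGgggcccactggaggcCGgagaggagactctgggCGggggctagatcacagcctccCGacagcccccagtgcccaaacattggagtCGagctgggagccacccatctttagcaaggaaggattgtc
Hoxd4: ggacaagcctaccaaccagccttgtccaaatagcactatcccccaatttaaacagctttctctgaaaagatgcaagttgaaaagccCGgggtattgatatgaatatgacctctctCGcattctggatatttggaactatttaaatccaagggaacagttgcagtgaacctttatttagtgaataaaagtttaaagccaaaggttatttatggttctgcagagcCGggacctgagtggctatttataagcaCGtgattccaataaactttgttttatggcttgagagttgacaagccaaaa
Hoxd13: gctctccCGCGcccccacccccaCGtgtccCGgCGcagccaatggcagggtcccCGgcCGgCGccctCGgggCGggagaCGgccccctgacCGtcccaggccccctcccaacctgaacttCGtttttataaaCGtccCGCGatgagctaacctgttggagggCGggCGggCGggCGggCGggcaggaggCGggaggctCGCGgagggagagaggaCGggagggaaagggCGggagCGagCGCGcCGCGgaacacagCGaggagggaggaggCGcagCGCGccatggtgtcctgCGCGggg
The promoter of Hoxa3 held 20 CpG and that of its paralogue Hoxd3 also 20. There were 29 in Hoxa5, 9 in Hoxc4, 4 in Hoxd4 and 37 in Hoxd13, which was the richest of the 6 and had no peak near it in any library.

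Cluster A held the most peaks in total and cluster D the fewest. Cluster A held 15, 5 and 22 peaks in control replicates 1 to 3 and, with knockdown, 16, 18 and 9. Cluster B held 7, 6 and 12 in the control and 14, 10 and 6 in the knockdown libraries. In cluster C there were 9, 5 and 12 in the control and 8, 10 and 11 in the knockdown libraries. Cluster D had 2, 0 and 1 peaks in the control and 1, 0 and 0 in the knockdown libraries. In each of the 6 libraries every one of the clusters A, B and C held more peaks than cluster D, while values of the 2 groups overlapped in all 4 clusters.

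**Figure D1:**
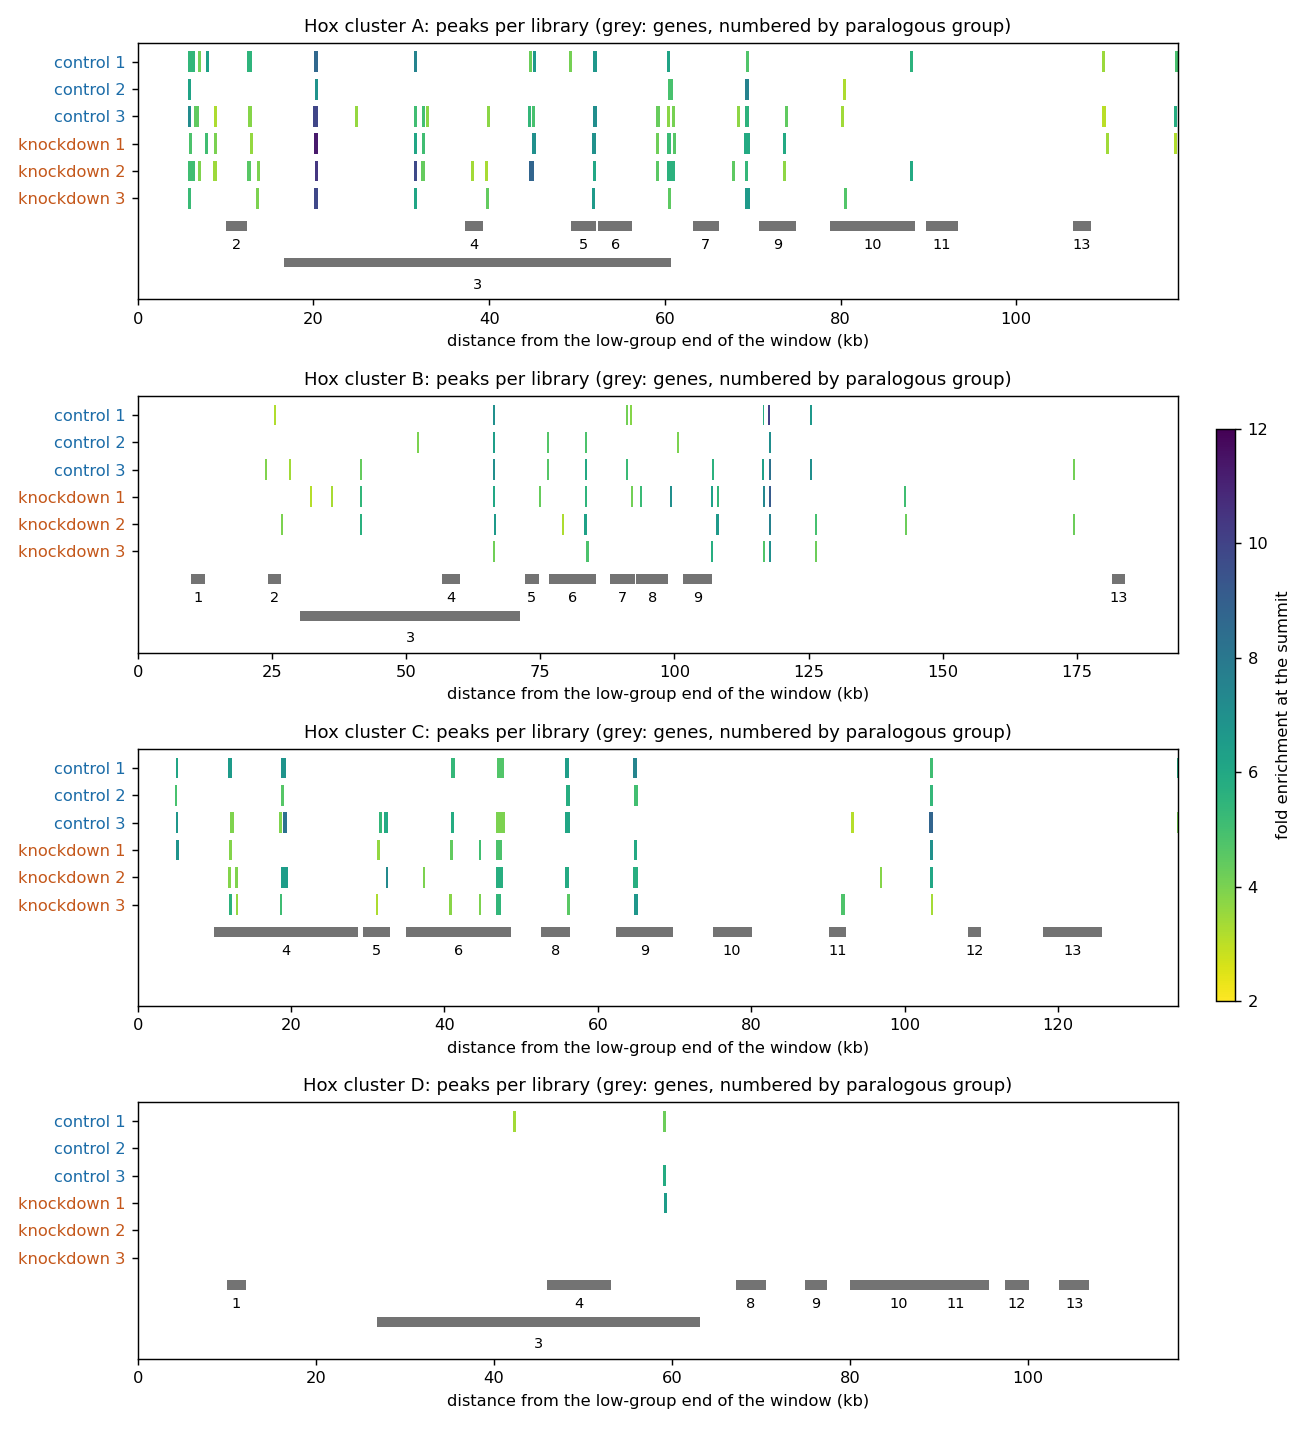
Peaks of each library along the 4 Hox clusters, with distance in kb from the end of the window that holds the low paralogous groups on the horizontal axis, 1 line per library, and colour for the authors' fold enrichment at the summit; grey bars are genes with their paralogous group number. Clusters A, B and C hold peaks in every library, and cluster D holds 4 peaks over all 6 libraries.

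**Figure D2:**
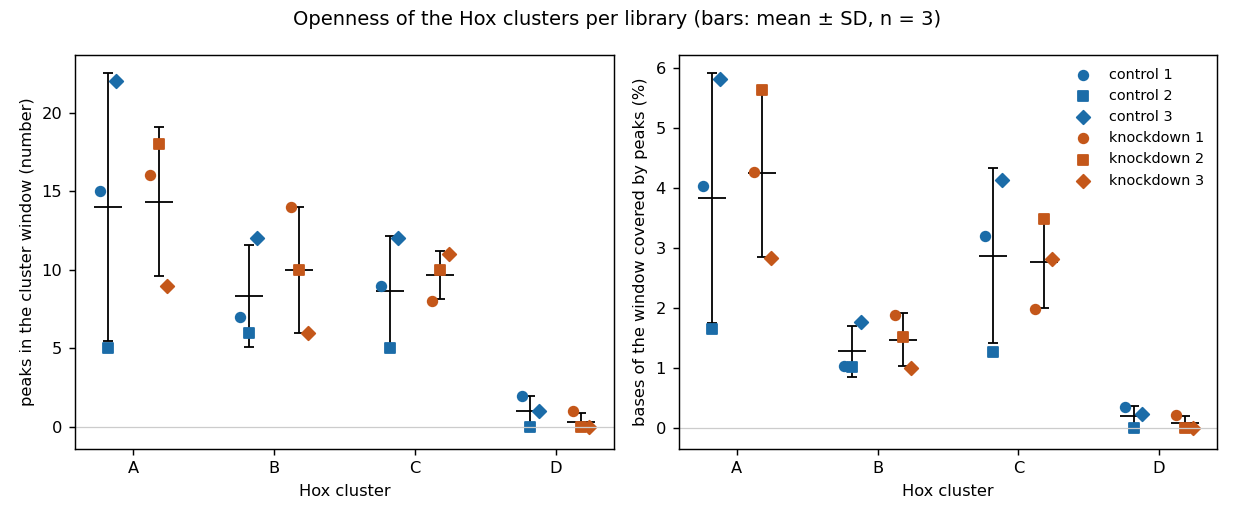
Number of peaks (left) and percent of bases covered by peaks (right) in each Hox cluster window, with 1 point per library and bars for mean ± SD (n = 3 control and 3 knockdown libraries). Control and knockdown points overlap in every cluster, and cluster D has 0 to 2 peaks per library.

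With the full lists, the values of control and knockdown libraries overlapped in every cluster on each measure. Cluster A held 14 ± 8.54 peaks in the control and 14.3 ± 4.73 in the knockdown libraries (SD, n = 3; two-sided exact permutation p = 1). The values were 8.33 ± 3.21 and 10 ± 4 in cluster B (exact permutation p = 0.7) and 8.67 ± 3.51 and 9.67 ± 1.53 in cluster C (exact permutation p = 0.8). In cluster D they were 1 ± 1 and 0.333 ± 0.577 (SD, n = 3; exact permutation p = 0.7). Peaks covered 3.84% ± 2.09 of cluster A in the control and 4.25% ± 1.40 in the knockdown libraries (SD, n = 3; exact permutation p = 0.8). Coverage was 1.28% ± 0.428 and 1.47% ± 0.440 in cluster B, 2.87% ± 1.46 and 2.76% ± 0.758 in cluster C, and 0.189% ± 0.174 and 0.0718% ± 0.124 in cluster D (SD, n = 3). Over 15 exact permutation tests (3 measures in 4 clusters and in the clusters together) each Benjamini-Hochberg adjusted p was 1, and 3 libraries against 3 allow no unadjusted p below 0.1.

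Cluster A differed from this when each list was reduced to its 33248 peaks of lowest q, so that lists were of equal length. Peaks then covered 2.45%, 1.66% and 1.85% of cluster A in control replicates 1 to 3 and, with knockdown, 2.85%, 3.06% and 2.58%. The groups no longer overlapped, and the difference was 0.844 percentage points (exact permutation p = 0.1, the smallest possible; adjusted p = 0.75 over 15 tests). Hox A bases per Mb covered by the library's peaks also separated, with a difference of 73.8 (exact permutation p = 0.1; adjusted p = 0.75). The number of peaks did not separate, at 8, 5 and 7 in the control and 9, 7 and 8 in the knockdown libraries (exact permutation p = 0.5). In cluster C the equal lists gave 1.72% ± 0.553 with knockdown and 2.03% ± 0.660 in the controls (SD, n = 3; exact permutation p = 0.5), the opposite order.

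The 2 libraries with the shortest lists held the fewest Hox peaks, though not in each cluster. The clusters together held 33, 16 and 47 peaks in control replicates 1 to 3 and, with knockdown, 39, 38 and 26. In cluster C, knockdown replicate 3 held 11 peaks despite its short list, more than 4 of the other libraries. The mean difference, knockdown minus control, was 2.33 peaks (exact permutation p = 0.8). Without control replicate 2 it was −5.67 peaks, the opposite direction. Hox bases per Mb covered by the library's peaks came to 582, 429 and 764 in the control and 610, 722 and 578 in the knockdown libraries, so control replicate 2 was lowest on this scale too. The part of depth in these values was not tested.

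Clusters A to C lay among the denser stretches of the genome, and cluster D did not. Over 26301 consecutive windows of 100 kb the median window held 0 or 1 peaks, depending on the library. Cluster A had 4.22 to 18.6 peaks per 100 kb, more than 93.2% to 100% of windows. Cluster B had 3.09 to 7.22 and exceeded 77.3% to 95.3% of windows, and cluster C had 3.68 to 8.84 and exceeded 88.1% to 99.0%. Cluster D had 0 to 1.71 peaks per 100 kb and exceeded 0% to 58.8% of windows, of which 45.5% to 51.1% held no peak. The surroundings of cluster D were sparse as well. In the 500 kb on either side of it there were 0.2 to 1 peaks per 100 kb, against 1.4 to 4 around cluster A, 3 to 6 around cluster B and 2.2 to 8 around cluster C.

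Along clusters A and C the open chromatin lay more densely on the side of the low and middle paralogous groups. In cluster A the side of groups up to 8 held a median of 1.68 peaks per 10 kb over the 6 libraries (range 0.438 to 2.48), and the side of groups 9 to 13 a median of 0.699 (0.400 to 0.999). The same order held in cluster C, with medians of 1.09 (0.505 to 1.52) and 0.327 (0.262 to 0.393). It was seen in 6 of 6 libraries in both clusters, though in cluster A control replicate 2 held 3 peaks on the side of groups up to 8 and 2 on the other. The 1 stretch of cluster C with a peak in 6 of 6 libraries lay on the side of groups 9 to 13. In cluster B the medians were 0.449 and 0.480, the ranges overlapped, and the side of groups up to 8 was the denser in 4 of 6 libraries. The posterior side of cluster D, with Hoxd9 to Hoxd13, which pattern the limbs, digits and genital tubercle, held 0 peaks in each of the 6 libraries.

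Peaks at gene starts were rare among Hox genes. A peak lay within 1000 bases of the start in 6 of 6 libraries for 1 of 38 members, Hoxa3, against 37.4% of protein-coding genes. In at least 1 library it did so for 16 of 38 members, against 58.8% of protein-coding genes. The other 22 members had none in any library, against 41.2% of protein-coding genes. For 22 members the start was known from RefSeq promoters. For the other 16 both gene ends were used, a larger window, and 10 of these 16 but 6 of the 22 had a peak in at least 1 library. Per library, 8, 4 and 13 members were open in control replicates 1 to 3 and, with knockdown, 7, 10 and 7. The groups overlapped, with means of 8.33 ± 4.51 and 8 ± 1.73 (SD, n = 3; two-sided exact permutation p = 1).

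**Figure D3:**
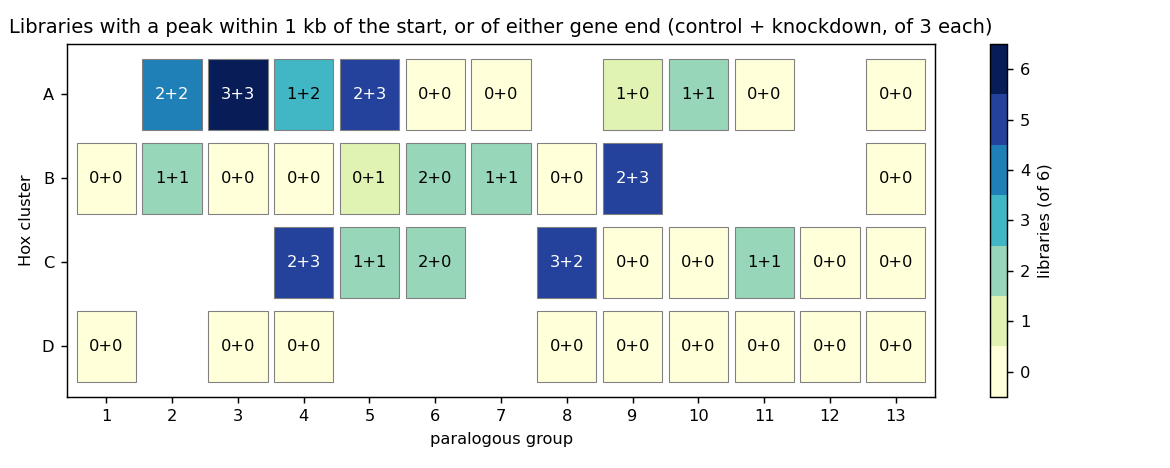
Number of libraries with a peak within 1 kb of each Hox gene's start (either gene end where the strand was not given), by cluster and paralogous group; each square gives control plus knockdown libraries, of 3 each, and colour gives their sum. Hoxa3 is the one gene open in 6 of 6 libraries, and the row of cluster D is at 0 throughout.

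Among anterior members, of groups 1 to 4, the group 3 gene Hoxa3, which patterns the pharyngeal arches, thymus and great vessels of the neck, was the most constant. The authors' fold enrichment at its start was 6.19, 4.89 and 4.04 in control replicates 1 to 3 and, with knockdown, 5.18, 5.61 and 4.48. The groups overlapped. The start used is that of a gene model of 44009 bases that spans Hoxa4, Hoxa5 and Hoxa6. It therefore lies between Hoxa6 and Hoxa7, among the central members of the cluster. The peaks lay in a region of chromosome 6 from 52212612 to 52213520, which also overlaps the noncoding gene Hoxaas3, and their summits lay up to 606 bases apart. At the start of Hoxa2, a gene of hindbrain and second arch identity, the fold was 5.51 and 3.80 in control replicates 1 and 3 and 3.59 and 4.61 in knockdown replicates 1 and 2. The libraries without that peak were those of shortest list. Hoxc4, a cervical and thoracic patterning gene, had a fold of 6.54 and 3.94 in control replicates 1 and 3 and 3.86, 3.94 and 5.58 in knockdown replicates 1 to 3, and no peak in control replicate 2. Hoxa4 was open in control replicate 3 and knockdown replicates 2 and 3, with folds of 3.74, 3.39 and 4.40, all weak. Hoxb2 was open in control replicate 3 and knockdown replicate 2. Hoxb1, Hoxb3, Hoxb4, Hoxd1, Hoxd3 and Hoxd4 had no peak at the start in any library.

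Among central members, of groups 5 to 8, Hoxa5 and Hoxc8 were open in 5 of 6 libraries each. Hoxa5, which is needed for lung and trachea and for cervical and upper thoracic vertebrae, had a fold of 6.70 and 7.09 in control replicates 1 and 3 and 6.97, 6.06 and 6.59 in knockdown replicates 1 to 3. Control replicate 2 had no peak there, and the other libraries lay close together. Hoxc8, a thoracic patterning gene, had 6.43, 5.76 and 6.06 in the controls and 5.93 and 4.54 in knockdown replicates 2 and 3. Knockdown replicate 1 had no peak at Hoxc8, though its list was among the longer ones. Hoxc5, Hoxc6, Hoxb6 and Hoxb7 were open in 2 libraries each and Hoxb5 in 1. For Hoxb6 these were peaks beyond the upper gene end, with folds of 4.69 and 4.62 in control replicates 2 and 3. The starts of Hoxa6, Hoxa7, Hoxb8 and Hoxd8 were without a peak in all 6 libraries.

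Among posterior members, of groups 9 to 13, Hoxb9 was the most often open. Hoxb9, expressed from the thoracic level towards the tail, had a fold of 3.96 and 5.61 in control replicates 2 and 3 and of 6.30, 6.61 and 5.74 in knockdown replicates 1 to 3. For Hoxb9 both ends were counted, and the control replicate 2 peak lay beyond the upper end of the gene. Hoxa10 was open in control replicate 1 and knockdown replicate 2 with folds of 5.58 and 5.94, and Hoxc11 in control replicate 3 and knockdown replicate 3 with 3.11 and 4.80. Hoxa9 was open in control replicate 3, with a fold of 4.45. No library had a peak at Hoxa11, Hoxa13, Hoxb13, Hoxc9, Hoxc10, Hoxc12 or Hoxc13 or at the cluster D genes Hoxd9, Hoxd10, Hoxd11, Hoxd12 and Hoxd13. In clusters A to C, 5 of 8 anterior, 7 of 10 central and 4 of 11 posterior members were open in at least 1 library, against 58.8% of protein-coding genes.

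Peaks of all libraries, joined wherever 1 base or more was shared, gave 72 regions in the 4 windows, with 26 in cluster A, 27 in B, 17 in C and 2 in D. Of these 7 (9.72%) were present in 6 of 6 libraries, against 24.4% of 85174 regions in the genome. Regions seen in 1 library numbered 26 (36.1%), against 33.5% in the genome. Of 8 regions present in 5 of 6 libraries, control replicate 2 was the absent one in 4.

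Of the 6 constant regions described here, that of Hoxa3 was the 1 at a member's start. The strongest of the 6, inside the long gene model of Hoxa3 at 52172394 to 52172977 on chromosome 6, overlapped the noncoding gene Gm15050 and lay 7.56 kb from the start of Hoxa2. Its fold was 8.67, 6.86 and 9.92 in control replicates 1 to 3 and, with knockdown, 11.3, 10.4 and 9.82, on 36, 19, 43, 42, 42 and 27 tags. The groups overlapped, with control replicate 2 lowest. A fold is scaled within its library, and folds were not tested between groups. Its summits fell within 69 bases of each other over the 6 libraries, and its fold ranked at the 81.2 percentile of its library's peaks (median).

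Of the other constant regions in cluster A, 1 lay between Hoxa7 and Hoxa9 at 52221387 to 52222142, 2.81 kb from the start of Hoxa7. Its fold was 4.77, 7.60 and 5.59 in the control and 5.91, 5.34 and 6.59 in the knockdown libraries, with the groups overlapping. Cluster B had 2 constant regions. The stronger lay between Hoxb13 and Hoxb9 at 96260296 to 96260866 on chromosome 11, inside the noncoding gene Gm53 and 10.5 kb from the start of Hoxb9. It had a fold of 10.1, 7.10 and 8.29 in the control and 9.17, 7.66 and 7.05 in the knockdown libraries, and summits within 78 bases of each other. The weaker lay inside the long gene model of Hoxb3 at 96311661 to 96312038. Its fold was 7.00, 6.42 and 7.07 in control and 6.03, 6.63 and 4.17 in knockdown libraries, with knockdown replicate 3 lowest. Cluster C had 1, between Hoxc12 and Hoxc11 at 102943123 to 102943619 on chromosome 15, beside the noncoding gene Hotair and 6.30 kb from the start of Hoxc12. The fold there was 5.06, 5.32 and 8.78 in the control and 6.96, 6.04 and 3.35 in the knockdown libraries, on 3 to 12 tags. Whether a region inside a gene model lies in an exon or an intron was not determined.

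Further regions inside members were present in 5 of 6 libraries and were described after their values were seen. A second region inside the Hoxa3 gene model, at 52183812 to 52184228, had a fold of 7.54 and 5.08 in control replicates 1 and 3 and, with knockdown, of 6.10, 9.81 and 6.13. It was absent in control replicate 2, and its summits lay within 58 bases. A region inside Hoxb6 (chromosome 11, 96294255 to 96295132), 1.44 kb from its lower end, was absent in control replicate 1 and had folds of 4.82 to 6.26 elsewhere. Inside Hoxc9 (chromosome 15, 102981583 to 102982301), a gene without a peak at its ends, control replicate 3 was the absent one and folds were 5.04 to 7.44. Inside Hoxc6 (102999001 to 103000193) control replicate 2 was absent, and folds were 3.98 to 5.72. Inside the long Hoxc4 gene model (103027208 to 103028411) knockdown replicate 1 was absent, and folds were 4.63 to 8.22. Among the regions of this paragraph the absent library thus differed. Over all 8 regions present in 5 of 6 libraries it was control replicate 2 in 4 and knockdown replicate 1 in 2. Control replicates 1 and 3 were absent in 1 each.

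Cluster D held 2 regions, both inside the long gene model of Hoxd3. The first, at 74715814 to 74716144 on chromosome 2, overlapped the noncoding gene Hoxd3os1 and lay 3.82 kb from the start of Hoxd3. Its fold was 4.25 and 5.88 in control replicates 1 and 3 and 6.50 in knockdown replicate 1, on 4, 6 and 7 tags. The other libraries had no peak there, and summits of the peaks present lay within 6 bases. The second, at 74732786 to 74732970, was a peak of 3 tags in control replicate 1.

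No Hox region was specific to a group. Of the 72 regions, 0 had a peak in each control library and in no knockdown library, against 0.277% of regions in the genome, and 0 in the opposite case, against 0.432%. At these background shares fewer than 1 region would be counted among 72, so the zeros do not set the clusters apart. Presence leaned to the control libraries in 23 regions and to the knockdown libraries in 34, and was equal in 15 (31.9%, 47.2% and 20.8%). In the genome these shares were 27.6%, 33.7% and 38.7%, and the difference was not tested. At gene starts, too, 0 of 38 members were control-only or knockdown-only, against 0.101% and 0.119% of protein-coding genes. With lists of equal length, 1 region inside Hoxc6 (chromosome 15, 102999263 to 103000159) was knockdown-only. In the full lists control replicates 1 and 3 also had a peak there, with folds of 4.71 and 3.98. When presence required a peak over at least 50% of the region, 1 region 7.25 kb from the start of Hoxc4 (103041643 to 103042028) was control-only. Without that requirement knockdown replicate 1 had a peak there too. Its fold was 6.83, against 6.14, 4.93 and 6.69 in control replicates 1 to 3.

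Peaks of clusters A and B held more tags than other peaks at the median, while the fold of Hox peaks as a whole was lower. Their median fold was 4.77 to 5.58 per library, against 5.78 to 6.95 for all peaks of the library. The median Hox peak had 9 to 13.5 tags at its summit, against 8 to 11 for all peaks. By cluster the library medians were 13.5 to 17 tags in A, 9.5 to 13.5 in B, 6 to 12.5 in C and 3.5 to 7 in D. Cluster C lay below its library's median in 3 of 6 libraries, and cluster D in each of the 3 that had a peak there. The local background that fold and tags imply was higher under the peaks of clusters A and B. It was 1.45 to 2.33 tags (library medians) in cluster A, 0.952 to 1.62 in cluster B and 0.421 to 1.53 in cluster C, against 0.463 to 0.703 for all peaks. In cluster A the median lay at the 91.1 to 96.7 percentile of all peaks of the library. Under the 4 peaks of cluster D the implied background was low, with library medians of 0.176 to 0.230 tags. A raised local background raises the tags needed to call a peak, and whether it hid weaker peaks there was not tested.

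**Figure D4:**
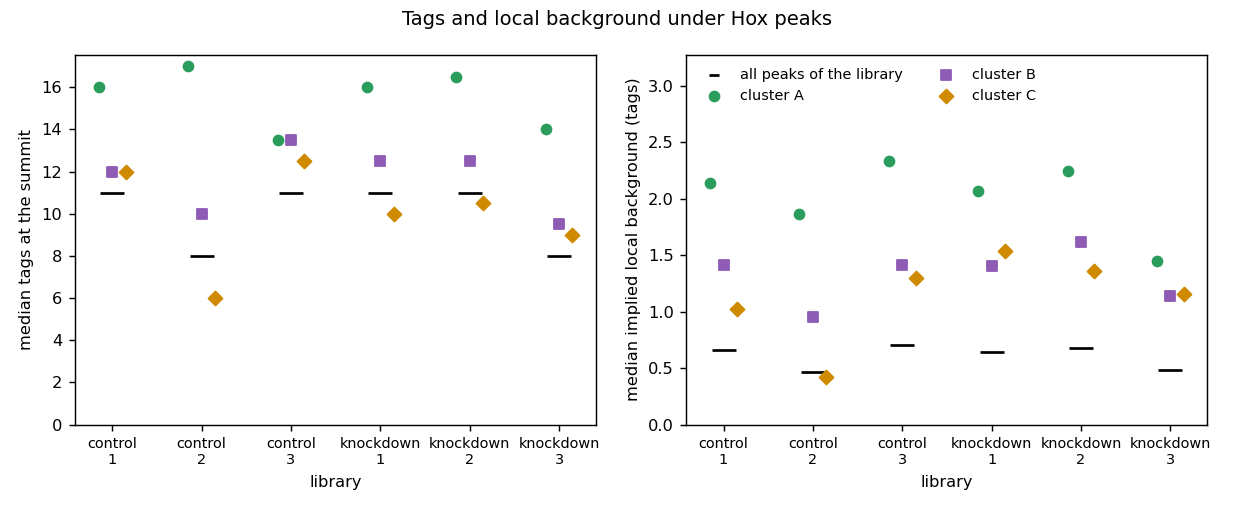
Median tags at the summit (left) and median implied local background in tags (right) per library, for all peaks of the library and for peaks in Hox clusters A, B and C. In the right panel the points of clusters A and B lie above the library's own median in 6 of 6 libraries and those of cluster C in 5; cluster D, with 0 to 2 peaks per library, is not drawn.

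In clusters A and D a CpG-rich promoter did not go with an open start as often as over the genome. Of 24 RefSeq promoters of 22 members, 9 were CpG-rich, with at least 55% G and C and an observed to expected CpG ratio of at least 0.65. Among all promoters 8082 of 21262 were CpG-rich, a share close to that of the Hox promoters. A peak lay within 1000 bases of the start in 6 of 6 libraries for 1 of these 9, against 62.5% of 8082 CpG-rich promoters. It did so in 0 of 6 libraries for 7 of the 9, against 10.9%. Of the 9, cluster A held 5, of which 3 had no such peak, and cluster D held 4, all without one. Of clusters B and C only Hoxb1, Hoxb4, Hoxb8 and Hoxc4 had a promoter sequence, and none of these was CpG-rich. Of promoters that were not CpG-rich, 0 of 15 Hox promoters and 20.9% of all had such a peak in 6 of 6 libraries. The 7 CpG-rich promoters without a peak belonged to Hoxa6, Hoxa10, Hoxa13, Hoxd1, Hoxd10, Hoxd11 and Hoxd13. Hoxa10 and Hoxd11 have 2 promoters each, and the other Hoxa10 promoter is the one with a peak in 2 libraries. The median promoter of cluster D held 20 CpG, against 13.5 in clusters A to C and 13 over all 21262 promoters.

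Matches to 3 motifs were counted in the promoters, and the differences in share were not tested. The letters ATTAAA, an AT-rich motif of the ARID3A kind, occurred on either strand in 5 of 24 Hox promoters (20.8%), against 11.7% of all promoters of the same length. The letters TGATNNAT, of the kind bound by PBX and HOX proteins together, occurred in 4 of 24 (16.7%), against 7.45%. The core of the CTCF motif occurred in 0 of 24, against 2.34%. The 2 promoters printed next, with ATTAAA or its reverse complement in capitals, are Hoxa2 (chr6:52164782-52165081, minus strand), which was open in 4 libraries and holds 2 matches, and Hoxd8 (chr2:74704365-74704664, plus strand), which was open in 0 and holds 1.
Hoxa2: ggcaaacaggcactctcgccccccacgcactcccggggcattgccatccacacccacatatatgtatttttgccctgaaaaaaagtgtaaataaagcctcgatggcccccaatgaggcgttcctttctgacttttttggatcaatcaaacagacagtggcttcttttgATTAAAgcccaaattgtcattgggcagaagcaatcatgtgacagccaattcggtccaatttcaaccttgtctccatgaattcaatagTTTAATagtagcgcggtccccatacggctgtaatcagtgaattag
Hoxd8: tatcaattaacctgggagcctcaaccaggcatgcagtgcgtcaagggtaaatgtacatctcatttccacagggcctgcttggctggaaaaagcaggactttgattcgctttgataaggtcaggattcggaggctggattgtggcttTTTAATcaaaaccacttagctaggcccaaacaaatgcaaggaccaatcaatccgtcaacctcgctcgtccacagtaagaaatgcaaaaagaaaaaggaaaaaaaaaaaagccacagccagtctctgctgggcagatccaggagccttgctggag
A match is a description of the letters and not of binding.

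The Hox clusters also carry microRNA genes, and 2 families stand in several clusters. Members of a family share their seed, bases 2 to 8, in capitals below, and target Hox transcripts among others.
miR-10a-5p: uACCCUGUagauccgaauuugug
miR-10b-5p: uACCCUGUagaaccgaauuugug
miR-196a-5p: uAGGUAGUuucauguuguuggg
miR-196b-5p: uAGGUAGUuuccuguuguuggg
Counted from the 5′ end, miR-10a-5p and miR-10b-5p differ by U12A, and miR-196a-5p and miR-196b-5p by A12C. Mir10a, in cluster B upstream of Hoxb4, lay 5.15 kb from a region present in 6 of 6 libraries, the one inside Hoxb3. Mir10b, inside the Hoxd3 and Hoxd4 gene models of cluster D, lay 6.69 kb from the nearest region, which was present in 1 library. The nearest regions of Mir196b, Mir196a-1 and Mir196a-2 lay 2.33, 3.19 and 8.20 kb away and were present in 3, 4 and 5 libraries. A further microRNA gene, Mir615 inside Hoxc5, lay 0.123 kb from a region present in 2 libraries and 0.12 kb from another present in 3.

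Noncoding genes of the clusters showed open ends in some cases. A peak lay at the start or either end of 3 of 15 listed genes in 6 of 6 libraries (Hotair, Hotairm1 and Hoxaas3). For 7 it did so in 0 of 6, among them Haglr, Hoxb5os, Mir10a, Mir10b and Mir196a-1. The corresponding shares of protein-coding genes were 37.4% and 41.2%. The peaks at Hoxaas3 were those at the start of Hoxa3, and the peaks at Hotair those of the constant region of cluster C. Hottip, a noncoding gene beyond Hoxa13 that is linked to the activity of posterior HoxA genes, had folds of 3.49 and 3.03 in control replicates 1 and 3 and 3.43 in knockdown replicate 1, and was picked out after its values were seen. Of 11 protein-coding genes beside the clusters, 5 (Calcoco1, Hibadh, Lnpk, Mtx2 and Skap2) were open at the start in 6 of 6 libraries, against 37.4% of protein-coding genes. The homeobox genes Evx1 and Evx2, which adjoin the posterior ends of clusters A and D, were open in 0. Lnpk had a fold of 11.6 to 13.4 in the control and 16.2 to 18.6 in the knockdown libraries, and Mtx2 of 3.77 to 9.30 and 6.87 to 8.12. A gene on either side of cluster D was thus open in 6 of 6 libraries. The ranges of the groups did not overlap at Lnpk and did at Mtx2. Folds are scaled within each library and were not tested between groups.

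Partners and regulators of Hox proteins were more often open in 6 of 6 libraries than the Hox genes themselves. Of these lists only the TALE cofactors lay well above the share of protein-coding genes in 6 of 6, and the differences were not tested. Of 9 TALE cofactors, homeodomain proteins that bind DNA together with Hox proteins, 6 had a peak at the start in 6 of 6 libraries (Meis1, Pbx3, Pbx4 and Pknox1 among them) and 0 in 0 of 6, against 37.4% and 41.2% of protein-coding genes. The fold at Meis1 was 7.91, 7.62 and 7.61 in the control and 9.93, 7.18 and 6.11 in the knockdown libraries. Of 16 Polycomb and Trithorax group genes and Ctcf, 6 were open in 6 of 6, among them Cbx8, Ezh2, Men1 and Suz12. This share is close to the 37.4% of protein-coding genes. None of the 16 was open in 0 of 6, against 41.2%. Of 10 genes upstream of Hox genes or of the ParaHox cluster, 3 were open in 6 of 6, against 37.4% of protein-coding genes. These were the retinoic acid receptor genes Rarb and Rarg and the ligand gene Gdf11. The other extreme, 0 of 6, held 5 of the 10, against 41.2% of protein-coding genes. These were Cdx1, Cdx2, Cdx4, Gsx1 and Gsx2, homeobox genes of gut and nervous system.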

How the data were processed

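ATAC-seq peak lists of 6 libraries, 3 control and 3 knockdown, were analysed. Per the submitters' processing notes, Bowtie2, Picard and MACS2 were used with build mm10, with versions, parameters and the handling of duplicates and of the Tn5 offset not given in the sources used here. Each list was called on 1 library by the authors. It gives for each peak the deposited fold enrichment (a ratio over the local background of that library), the deposited −log10 p and −log10 q, a deposited score equal to the −log10 q times 10 cut to a whole number for 280102 of 280120 peaks, and the summit position. The smallest deposited −log10 q lay between 1.30 and 1.32 in each list.

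Positions are counted from 1. Gene positions and promoter sequences came from RefSeq tables of GRCm38.p6, the assembly of mm10. All 38 members matched the gene table and 22 the promoter table. Starts were taken from the promoter table, and both gene ends where a gene had none, for members and for all 21882 genes alike. A member was called open where a peak overlapped the 1000 bases on either side. One Hox gene is not analysed here. The region over it was counted but not named. Tags at a summit were recovered as the whole number from 1 to 600 that matched the deposited −log10 p within 0.001 given the fold, under the Poisson model of MACS2. This held for at least 99.996% of peaks. The implied local background is the tags plus 1, divided by the fold, minus 1. Total tags per library: not given in the sources used here.

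Control and knockdown libraries were compared by two-sided exact permutation over 20 relabellings, with Benjamini-Hochberg adjustment over 15 tests. All 38 members are named, with up to 3 of the strongest constant regions per cluster by within-library rank, and list genes open in 6 of 6 or 0 of 6 libraries, at most 5 of each. Some listed genes are not reported here. Members and lists were chosen with earlier results of these data known. The comparisons of CpG, local background and cluster sides were added after the values were seen. Scripts were tested on simulated data. Python 3.11.15, NumPy 2.4.6, pandas 2.3.3 and SciPy 1.17.1 were used.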

Additional observations from a re-analysis of the deposited data

How the results depend on the processing

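Differences are knockdown minus control. When peaks below a −log10 q of 5 were dropped, coverage of cluster B differed by −0.00309 percentage points and −2.04 bases per covered Mb, cluster C by −0.667 peaks and −6.04 bases per covered Mb, and cluster D by 0 peaks and 0.239 bases per covered Mb. There were then 38 regions, 3 of them in every library. With lists of equal length, coverage of cluster A differed by 0.844 percentage points and 73.8 bases per covered Mb (exact permutation p = 0.1 each, the smallest possible), against 0.410 and 32.7 with the full lists (p = 0.8 and 0.6). Cluster C differed by −1.33 peaks and −23 bases per covered Mb and cluster D by 0 peaks and 0.261 bases per covered Mb. There were then 39 regions, 4 in every library and 1 knockdown-only. Without the flank, coverage of cluster C differed by 0.117 percentage points. When presence required a peak over at least 50% of the region, 1 region was present in every library and 1 was control-only. Open starts in every library, in at least 1 library and on average per library, with their difference, were 0, 10, 4.33 and 0 for a −log10 q of 5, 0, 10, 4.67 and 0.667 for equal lists, and 0, 10, 4.33 and 0 for the promoter window of 250 bases before to 50 after. A window of 2500 bases gave a mean of 13.3 and a difference of 2. Taking unknown starts from the strand of the cluster, chosen after seeing the data, gave a difference of 1. The cause of these shifts was not tested, beyond the fewer peaks and narrower or wider windows that the alternatives hold by construction.

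Leaving out each library in turn, the difference in peaks ran from −4.17 to 4.33 in cluster A, −0.333 to 3.67 in B, −0.833 to 2.67 in C, −1.17 to −0.167 in D and −5.67 to 9.83 in all. Coverage ran from −0.682 to 1.4, −0.0131 to 0.439, −0.904 to 0.525, −0.212 to −0.0402 and −0.382 to 0.55 percentage points, and bases per covered Mb from −12.1 to 76.2, −2.03 to 31.8, −34.8 to 35.4, −11.9 to −1.78 and −36.5 to 131. Regions in every library numbered 7 to 11, control-only 0 to 3 and knockdown-only 0 to 3, where fewer libraries have to agree by construction. Open starts in every library numbered 1 to 3, and their difference ran from −2.5 to 2.

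The replicate numbers were not taken to pair the libraries. The knockdown numbers are siRNA numbers. Deviations in region presence correlated by 0.0240, −0.0521 and −0.0479 between same-numbered libraries. Between differently numbered ones the values ran from −0.0455 to 0.0912. With 3 libraries per group these values cannot exclude a shared culture or batch. With the replicate block (exact sign-flip test, smallest p 0.25) the difference for all clusters was 2.33 peaks (p = 0.75). With that smallest p the block could not have changed a call.

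The lists give no total depth, and a weak site can be missed in the libraries with the shortest lists, control replicate 2 and knockdown replicate 3. Group sizes of 3 allow no unadjusted p below 0.1. Counts at gene ends for 16 members may include the end opposite the start.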

Other observations

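Snx10, a sorting nexin gene below cluster A, was the one gene of the 11 beside the clusters whose start was open in 3 of 3 knockdown and 0 of 3 control libraries. It was singled out after its values were seen. The fold was 7.95, 5.91 and 6.49 in knockdown replicates 1 to 3. Knockdown-only starts made up 0.119% of protein-coding genes.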
